A study of Mus musculus with 3 samples.

Results

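MiR-7 was examined in microRNA (miRNA) libraries from exosomes, the small membrane vesicles that cells shed, of bone-marrow-derived macrophages. The members were the 3 mature strands mmu-miR-7a-5p, mmu-miR-7b-5p and mmu-miR-7b-3p, written below without the mouse prefix, of 1915 mature mouse miRNAs listed, taken by name. The family was chosen by the measured level of miR-7a-5p, which is among the 10 highest by mean, so that level is described here and not tested. The 3 libraries form 1 group: wild-type C57BL/6 adult mice, marrow of femur and tibia grown with the macrophage growth factor M-CSF for 24 h, then medium with exosome-free serum from which vesicles were pelleted after 72 h. No control group, parent cells or other condition was analysed here, and no library carries a treatment beyond this culture. Whether the libraries, called 1, 2 and 3 after their numbers, are of separate animals or cultures is not stated in the labels, so the spread between them may be technical.

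MiR-7 is an ancient animal miRNA known best from neurons and endocrine cells, where its 5p strand pairs through its seed with messenger RNAs and represses them. In mammals, its 5p strand is encoded in several hairpins. In the mouse brain it takes part in a circuit of noncoding RNAs: the circular RNA Cdr1as carries many miR-7 sites, miR-671-5p directs the cutting of Cdr1as, and the long noncoding RNA Cyrano directs the destruction of miR-7.

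The mature strands show which reads can be told apart, with the seed (bases 2 to 8) in capitals, from RefSeq on GRCm38.p6.
miR-7a-5p: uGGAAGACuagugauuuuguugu
miR-7b-5p: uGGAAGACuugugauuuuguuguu
miR-7b-3p: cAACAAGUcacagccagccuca
miR-7a-1-3p: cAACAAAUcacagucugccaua
miR-7a-2-3p: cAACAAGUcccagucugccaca
The seed GGAAGAC was held by 2 names in the table, miR-7a-5p and miR-7b-5p, among the 1623 of 1915 names with a RefSeq mature sequence. These 5p strands have 23 and 24 bases and differ over the shared length by A10U (miR-7a base, position from the 5′ end, miR-7b base). The 3p strands differ more, by 3 to 5 of 22 bases in each pair. MiR-7b-3p and miR-7a-2-3p share the seed AACAAGU, whereas miR-7a-1-3p has AACAAAU.

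The miR-7a-5p sequence is encoded in a pair of hairpins, so its counts cannot be credited to either copy. One copy lies at chr13:58392841-58392863 (minus strand) in the hairpin Mir7-1, within an intron of Hnrnpk, a widely expressed gene for an RNA-binding protein. The other lies at chr7:78888295-78888317 (plus strand) in Mir7-2, which overlaps no other gene in GENCODE M21 and stands between the protein-coding genes Det1 and Aen. MiR-7b-5p lies at chr17:56243017-56243040 (plus strand) and miR-7b-3p at chr17:56243055-56243076, both in Mir7b, which also overlaps no other annotated gene and stands between Dpp9 and Fem1a. The hairpins, with both mature strands in capitals, show that the 3p strand is the part that separates the copies of miR-7a.
Mir7-1: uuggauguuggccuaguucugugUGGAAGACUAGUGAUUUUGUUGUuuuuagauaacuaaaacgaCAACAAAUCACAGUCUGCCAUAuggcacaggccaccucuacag
Mir7-2: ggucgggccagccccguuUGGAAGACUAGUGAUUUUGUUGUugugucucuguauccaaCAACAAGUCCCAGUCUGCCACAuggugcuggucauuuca
Mir7b: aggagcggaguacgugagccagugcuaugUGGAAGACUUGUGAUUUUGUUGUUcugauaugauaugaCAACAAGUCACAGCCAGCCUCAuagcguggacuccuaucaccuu

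The libraries held 3008995, 2489984 and 3208617 miRNA counts, and levels are given as counts per 1000000 of these (CPM). Library 1 stood apart: of the 134 miRNAs that averaged 100 CPM or more, 75 differed by over 2-fold between libraries 2 and 1 and 93 between libraries 3 and 1, against 36 between libraries 3 and 2. As a check of the labelled cell type, the myeloid list of 9 miRNAs summed to between 7.83% and 38.7% of counts, lowest in library 1. Of its members 8 of 9 had 10 counts or more in every library and none was at 0 in all. So did 6 of 7 epithelial miRNAs, against 2 of 11 of the neuron and endocrine list. Reaching 10 counts therefore does not mark a cell type. Of the myeloid sum 98.8% to 99.4% came from 3 miRNAs that many cell types express: miR-146a-5p, miR-146b-5p and miR-21a-5p. The blood-lineage markers were far lower, with 35.6, 52.6 and 33.0 CPM of miR-223-3p in libraries 1, 2 and 3, and 42.9, 1364 and 819 CPM of miR-142a-3p. The neuron and endocrine list summed to between 949 and 3741 CPM, nearly all of it miR-128-3p, which other tissues express too. Its members miR-124-3p, miR-137-3p and miR-153-3p had no counts in any library, and the islet and pituitary miRNA miR-375-3p had 2, 8 and 34 counts in libraries 1, 2 and 3. The summed lists of erythroid (15.6 to 89.7 CPM), endothelial (25.2 to 44.6 CPM), stromal (135 to 247 CPM), epithelial (103 to 473 CPM) and liver markers (322 to 1500 CPM) were low beside miR-7a-5p.

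MiR-7a-5p made up almost all of the family. It had 34666, 104785 and 210063 counts in libraries 1, 2 and 3, which were 11521, 42083 and 65468 CPM. As a share of miRNA counts this was 1.15% (Wilson 95% interval 1.14 to 1.16), 4.21% (4.18 to 4.23) and 6.55% (6.52 to 6.57), with a mean of 3.97% ± 2.71 (SD, n = 3). The intervals, which cover counting error only, do not overlap, and library 1 was the lowest. Of the counts of all members, miR-7a-5p took 99.6% ± 0.0411 (SD, n = 3).

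By mean level miR-7a-5p ranked 6, at 39691 ± 27053 CPM. Its neighbours were miR-146b-5p at rank 5, with 43483 ± 37397 CPM, and miR-27b-3p at rank 7, with 37449 ± 19891 CPM (SD, n = 3 each). Neither mean differed from that of miR-7a-5p by more than its spread, but the levels within libraries did differ. MiR-27b-3p had 60242, 28503 and 23602 CPM in libraries 1, 2 and 3, the opposite order to miR-7a-5p. MiR-146b-5p had 6950, 41809 and 81688.5 CPM, the same order. MiR-146b-5p belongs to the miR-146 family, which many cell types express. The last miRNA inside the 10 highest was miR-30d-5p, at 27606 CPM, and the first outside was let-7g-5p, at 26080 CPM. The rank by mean rests on libraries 2 and 3, in each of which miR-7a-5p ranked 5, while in library 1 it ranked 18. Without library 1 it averaged 53776 ± 16536 CPM (SD, n = 2).

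**Figure D1:**
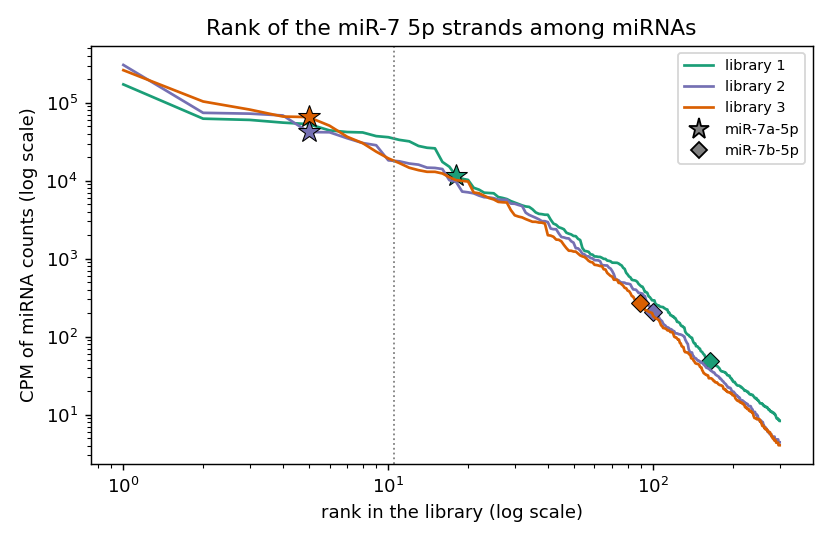
Level of the 300 highest miRNAs of each library (CPM, log scale) by their rank in that library (log scale), one line per library, with stars for miR-7a-5p, diamonds for miR-7b-5p and a dotted line after rank 10. The star lies at rank 5 in libraries 2 and 3 and at rank 18 in library 1, and the diamonds lie at ranks 164, 100 and 89 in libraries 1, 2 and 3.

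MiR-7b-5p, the strand with the same seed, was far less abundant. It had 147, 509 and 855 counts in libraries 1, 2 and 3, or 48.9, 204 and 266 CPM, with a mean of 173 ± 112 CPM (SD, n = 3) and rank 112 by mean. As for miR-7a-5p, library 1 was the lowest and library 3 the highest, and without library 1 the mean was 235 ± 43.9 CPM (SD, n = 2).

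MiR-7b-3p, the opposite strand of the miR-7b hairpin, had 0 counts in all libraries. A count of 0 (limit of 3 counts) allows at most 0.997 CPM in library 1, 1.20 CPM in library 2 and 0.935 CPM in library 3.

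**Figure D2:**
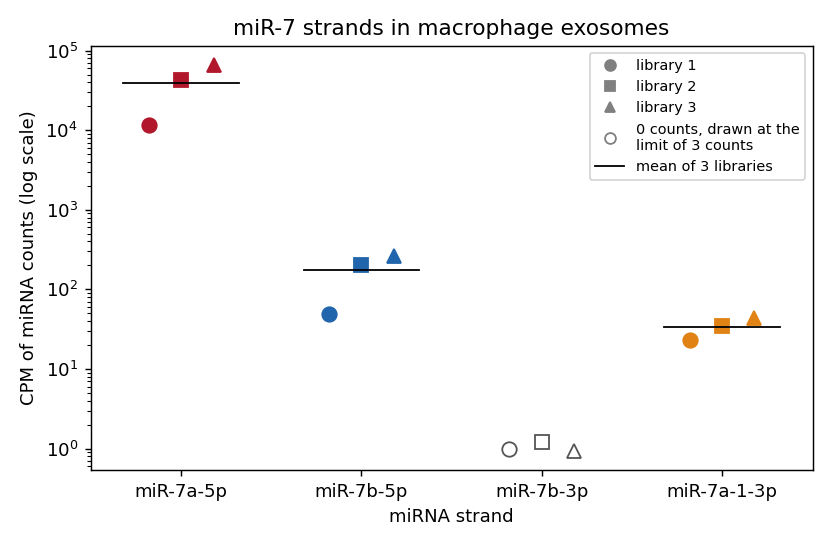
Level of each miR-7 strand (CPM, log scale) in libraries 1, 2 and 3 (circle, square, triangle), with a line at the mean of the 3 libraries, and open symbols where the count was 0, drawn at the limit of 3 counts. MiR-7a-5p lies between 11521 and 65468 CPM, miR-7b-5p between 48.9 and 266 CPM and miR-7a-1-3p between 23.3 and 44.3 CPM, while miR-7b-3p was at 0 throughout.

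The 5p strands kept nearly the same ratio to each other while their levels differed severalfold between libraries. MiR-7b-5p was 0.422% (Wilson 95% interval 0.359 to 0.496) of the counts of both 5p strands in library 1, 0.483% (0.443 to 0.527) in library 2 and 0.405% (0.379 to 0.433) in library 3. The mean was 0.437% ± 0.0411 (SD, n = 3), which is 236, 206 and 246 counts of miR-7a-5p for each count of miR-7b-5p. The interval of library 1 overlaps both others, whereas those of libraries 2 and 3 do not overlap. Without library 1 the mean share was 0.444%. Between the highest and the lowest library this share differed 1.19-fold, and the level of miR-7a-5p 5.68-fold.

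Since 1 base separates these strands over their shared length, the same share was computed for every pair of table names whose RefSeq sequences differ so. Lengths could differ by up to 2 bases, and the higher member had to average at least 100 CPM. With miR-7 there were 16 pairs, some of which share a member. The mean share of the lower member ranged from 0.0321% (let-7j beside let-7i-5p) to 34.2% (let-7a-5p beside let-7c-5p), and the miR-7 pair had the third lowest. Next below stood miR-106a-5p beside miR-17-5p, at 0.225%, 0.204% and 0.116% in libraries 1, 2 and 3. Next above stood miR-100-5p beside miR-99a-5p, at 0.544%, 0.677% and 0.707%. These sequences, with the differing base in capitals, show that the base changes inside the strand in all 3 pairs.
miR-7a-5p: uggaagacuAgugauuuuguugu
miR-7b-5p: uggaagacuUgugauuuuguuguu
miR-17-5p: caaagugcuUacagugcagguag
miR-106a-5p: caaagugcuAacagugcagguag
miR-99a-5p: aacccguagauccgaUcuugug
miR-100-5p: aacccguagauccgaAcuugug
Of the 16 pairs, 6 had a mean share under 1%, and in 6 the share varied less than 1.5-fold between libraries. The miR-7 pair belongs to both sets and was the third steadiest, after miR-27a-3p beside miR-27b-3p (1.12-fold) and let-7a-5p beside let-7f-5p (1.13-fold), while miR-107-3p beside miR-103-3p varied 8.61-fold. How many miR-7b-5p counts are miR-7a-5p molecules read with a wrong base was not tested, and the files hold no reads with which to count them.

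**Figure D3:**
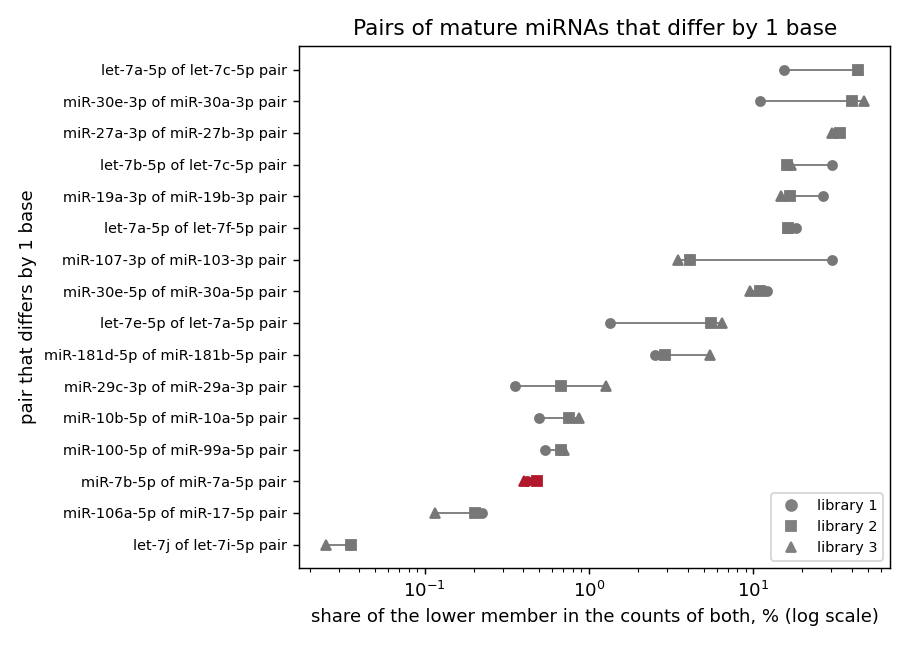
Share of the lower member in the counts of both members (%, log scale) for the 16 pairs of mature miRNAs that differ by 1 base over their shared length, ordered by mean share, with circle, square and triangle for libraries 1, 2 and 3 and a line from the lowest to the highest. The miR-7 pair (red) lies between 0.405% and 0.483%, close together beside pairs such as miR-107-3p and miR-103-3p, at 3.49% to 30.1%.

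The members were then compared between libraries, with the other abundant miRNAs as background. For miR-7a-5p, library 2 was 3.65-fold and library 3 was 5.68-fold above library 1, and library 3 was 1.56-fold above library 2. For miR-7b-5p these folds were 4.18, 5.45 and 1.30. The background was the 134 miRNAs that averaged 100 CPM or more, to which both belong. Of these 20.1% were more than 2-fold higher in library 2 than in library 1, against 35.8% more than 2-fold lower. In library 3, 21.6% were more than 2-fold higher than in library 1 and 47.8% more than 2-fold lower, and 7.46% were more than 2-fold higher than in library 2, a fold that neither member reached. The median log2 ratio of the 134 was -0.62 for library 2 over 1 and -0.96 for library 3 over 1. A larger ratio than that of miR-7a-5p was seen in 19 of the 134 for library 2 over 1 and in 13 for library 3 over 1.

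Scaling by TMM factors, which assumes that most miRNAs do not change, added 0.61 to every log2 ratio of library 2 over 1. The shift was 0.86 for library 3 over 1, and for library 3 over 2 it was 0.25. With them miR-7a-5p was 5.59-fold and 10.3-fold higher in libraries 2 and 3 than in library 1, and miR-7b-5p 6.41-fold and 9.92-fold. Both strands were already higher in libraries 2 and 3, and the shifts are positive, so the direction could not change with this scaling.

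Marker lists of cell types differed between the libraries as well. The myeloid list summed to 78265, 386830 and 381855 CPM and the epithelial list to 103, 473 and 342 CPM in libraries 1, 2 and 3. Of their members 6 of 9 and 3 of 7 were lowest in library 1, against 41 of the 134 abundant miRNAs. Members of the lists were counted at any level, even at a few counts, whereas the 134 averaged 100 CPM or more. The liver marker miR-122-5p was also lowest there, at 322, 548 and 1500 CPM. The neuron and endocrine list (3741, 949 and 1313 CPM), the erythroid list (89.7, 27.7 and 15.6 CPM) and the stromal list (247, 141 and 135 CPM) were highest in library 1, and the endothelial list had 25.9, 44.6 and 25.2 CPM. The order of the neuron and endocrine sum is that of miR-128-3p alone (3723, 929 and 1264 CPM). Of the 11 members of that list, 3 had no counts and 4 were lowest in library 1. The part of other cells in the lower miR-7 level of library 1 was not tested. In such bulk libraries, fewer vesicles from a cell type and less miR-7 in each vesicle cannot be told apart.

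Counting error was weighed with a chi-square test of each miRNA's 3 counts against the library totals. It compares these libraries and not conditions, and called 318 of 353 miRNAs (90.1%) at a Benjamini-Hochberg adjusted p below 0.05. Of the 3 members 2 had the summed count of 30 needed, and both were called, which is near that background. With no filter 370 of 886 (41.8%) were called, and without library 1 177 of 288 (61.5%). The statistic was 112917 for miR-7a-5p, whose p is too small to be written, and 443 for miR-7b-5p (adjusted p = 2.24e-96). The rule chose miR-7a-5p for its high level, and at such counts even small differences between libraries are called. Its call was therefore all but set in advance and adds nothing to the folds above.

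Profiles over the libraries were compared by the Euclidean distance between centred log2(CPM + 1) values over 3 libraries, a description that 3 points do not allow to be tested. MiR-7a-5p and miR-7b-5p lay 0.19 apart, against a median distance of 2.60 from miR-7a-5p to the other 132 abundant miRNAs. The 5 nearest to miR-7a-5p were miR-30e-3p (distance 0.12), miR-30b-5p (0.36), miR-26a-5p (0.38), miR-182-5p (0.52) and miR-200c-3p (0.63). The same 5 names were nearest to miR-7b-5p, led by miR-26a-5p at 0.21 and miR-30e-3p at 0.27. MiR-30e-3p had 101, 331 and 536 CPM in libraries 1, 2 and 3, and miR-26a-5p had 1137, 5702 and 6410 CPM. MiR-200c-3p, a marker of epithelium, had 20.3, 142 and 152 CPM. Of the epithelial list 3 of 7 members were lowest in library 1, miR-200c-3p among them. Others were not, such as miR-205-5p (17.6, 87.6 and 3.74 CPM) and miR-429-3p (5.32, 5.22 and 4.05 CPM).

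**Figure D4:**
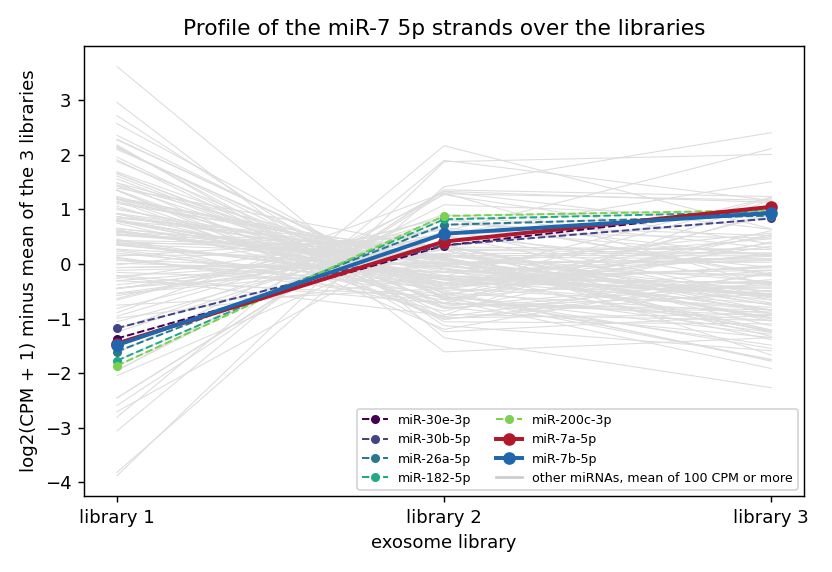
Log2(CPM + 1) minus its mean over the 3 libraries, for the miR-7 5p strands (thick lines), the 5 miRNAs nearest to miR-7a-5p (dashed) and the other miRNAs that averaged 100 CPM or more (grey); the lines join libraries that have no order. Both 5p strands are lowest in library 1 and highest in library 3, where library 3 exceeds library 1 by 2.51 for miR-7a-5p and 2.45 for miR-7b-5p as log2 ratios of CPM.

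Next, the arms of each hairpin were compared. Of the miR-7a 3p strands, which carry a copy number in their names, miR-7a-1-3p from the Hnrnpk intron had 70, 87 and 142 counts (23.3, 34.9 and 44.3 CPM) in libraries 1, 2 and 3 and miR-7a-2-3p had 0 in each, so that the strand from Mir7-1 was at least 23.3-fold, 29.0-fold and 47.3-fold higher against a floor of 3 counts per library. There were 495, 1204 and 1479 counts of miR-7a-5p for each count of miR-7a-1-3p, a ratio lowest in library 1, where the 3p share of 0.202% (Wilson 95% interval 0.160 to 0.255) lay above those of libraries 2 and 3, at 0.0830% (0.0673 to 0.102) and 0.0676% (0.0573 to 0.0796).

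In the miR-7b hairpin the 5p strand was at least 49-fold, 170-fold and 285-fold higher than the 3p strand in libraries 1, 2 and 3, against the same floor. At the ratio of miR-7a-5p to miR-7a-1-3p in each library, the miR-7b-5p counts would go with 0.297, 0.423 and 0.578 counts of miR-7b-3p. These sum to 1.30 counts over the 3 libraries, so a miR-7b-3p strand in that proportion is not told apart from none by the counts of 0.

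EdgeR's quasi-likelihood test over the 157 hairpins with both arms under 1 name and a summed count of at least 60 called miR-7b as higher in 5p (adjusted p = 1.93e-11). The call went the same way for 41.4% of hairpins, and 38.9% were called as higher in 3p. Without the filter, 168 of 473 hairpins (35.5%) were called in either direction, against 126 of 157 (80.3%) with it. MiR-7b passed the filter through its 5p counts alone and so had to differ, and the fitted ratio of an arm at 0 depends on edgeR's prior count. In 12 of the 157 hairpins the 3p arm was at 0 in all libraries, among them miR-122, miR-192 and miR-374b. By fitted ratio miR-7b stood between miR-20a above and miR-374b below, where miR-374b had 326, 442 and 549 counts of 5p and 0 of 3p.

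**Figure D5:**
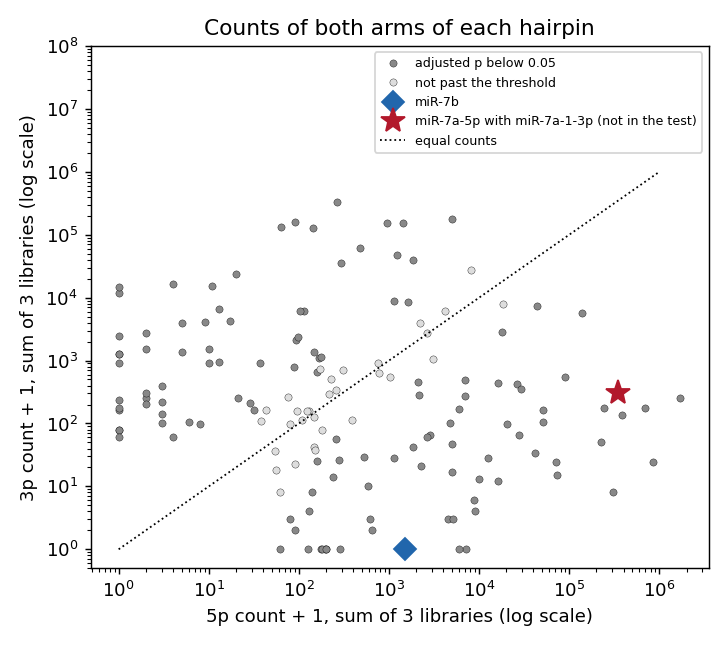
Counts of the 5p and 3p arms (count + 1, summed over 3 libraries, log scales) of the 157 hairpins tested, dark where called by edgeR at an adjusted p below 0.05, with a diamond for miR-7b, a star for miR-7a-5p with miR-7a-1-3p, and a dotted line of equal counts. MiR-7b, with 1511 counts of 5p and 0 of 3p, lies on the lower edge with 11 other hairpins, and miR-7a, with 349514 and 299 counts, lies far to the 5p side.

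The miR-671 strands, as partners in the circuit around miR-7, were present at low levels. MiR-671-5p, which directs the cutting of Cdr1as in the brain, had 105, 29 and 11 counts in libraries 1, 2 and 3, or 34.9, 11.6 and 3.43 CPM. Its opposite strand miR-671-3p had 95, 12 and 21 counts, or 31.6, 4.82 and 6.54 CPM. Both were highest in library 1, as were many miRNAs, given the negative median log2 ratios of libraries 2 and 3 over library 1 above. With TMM factors miR-671-5p was still lower in libraries 2 and 3 than in library 1, at log2 ratios of -0.97 and -2.48. Cdr1as and Cyrano are not miRNAs and were not analysed here.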

How the data were processed

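Per the labels' protocols, exosome RNA was ligated to adapters, amplified by the NEBNext small RNA protocol and read from 1 end over 50 bases. Ligation and PCR can favour some sequences, and without molecular identifiers counts are of PCR products. Bcl2fastq, BWA and mm10 are named in the submitters' processing notes; trimming, allowed mismatches, the miRNA annotation and how multiply matching reads were counted are not given in the sources used here. Deposited by the authors were a raw count for each mature miRNA and a normalized value. As worked out from the deposited columns, that value is RPM on denominators of 14047692, 13995845 and 14002577, of which miRNA counts are 21.4%, 17.8% and 22.9%.

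Levels are CPM of miRNA counts. Wilson intervals and floors cover counting error only. Tests were a chi-square test (scipy 1.17.1; summed count of at least 30) and edgeR 4.0.16 (quasi-likelihood, library and arm as terms, summed count of at least 60), both adjusted over all miRNAs or hairpins tested. Both were also run on simulated counts, with counting error alone for the chi-square test and a set spread for edgeR. The spread was not matched to these libraries, so those runs do not speak for the p-values here. DESeq2 1.42.0, TMM and DESeq2 scaling, totals without miR-21a-5p, the authors' RPM, other filters and leaving out each library were alternatives. Sequences are RefSeq's (GRCm38.p6); loci are from GENCODE M21 (GRCm38), the build that mm10 names.

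Members, marker lists and tests were chosen with earlier results of these data known. MiRNAs were named by rule: members, copy-numbered miR-7a arms, ranks 5 to 7, 10 and 11, the 5 nearest profiles, circuit partners, and neighbours of miR-7 in pair share and arm ratio; the extremes of the pair shares, the steadiest pairs, and other list and hairpin examples were chosen after their values were seen. The strands of miR-3529, which the plan named as the hairpin opposite Mir7-2, were also listed but not analysed here. The gene annotation used shows no gene overlapping Mir7-2.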

Additional observations from a re-analysis of the deposited data

How the results depend on the processing

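Of 60 recomputed values 57 were counted as unchanged. Levels and shares had to move by less than the spread between libraries, and tests of members had to stay on the same side. Leaving out a library cannot move such a mean by that spread, so these levels and shares had to count as unchanged. They are no sign of stability. Numbers of calls and of nearest names had to stay within 1.5-fold. That rule takes numbers and not shares, so the unfiltered chi-square test (370 of 886, against 318 of 353) counts as unchanged. The 57 also include the miR-7b-3p means, which were 0 under every alternative. The authors' RPM, whose denominators hold more than miRNA counts, gave means of 8319 for miR-7a-5p and 36.0 for miR-7b-5p. TMM factors, DESeq2 size factors and totals without miR-21a-5p gave miR-7a-5p means of 46206, 46352 and 53730 CPM. Leaving out each library in turn gave a mean of 26802 to 53776 CPM for miR-7a-5p and of 127 to 235 CPM for miR-7b-5p, and a miR-7b-5p share of 0.414% to 0.453%. The chi-square test then called 177 to 284 miRNAs, the 177 without library 1, where 288 were tested. It still called both tested members, of which miR-7a-5p was all but certain to be called at its counts. The call of miR-7b in the arm test is no sign of stability under the alternatives, since its 3p arm is at 0 in every library. With a mean of at least 10 CPM, 4 of the 5 nearest names were kept for each 5p strand. No paired analysis of groups was possible because there is 1 group; the arm test sets 5p against 3p within libraries. For the counts of 0 of miR-7b-3p and miR-7a-2-3p, a limit of 3 counts per library was assumed.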
